A study of Mus musculus with 6 samples.

Results

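The respiratory chain members were the protein-coding genes whose symbols begin with mt-Nd, mt-Co, mt-Atp, mt-Cytb, Ndufa, Ndufb, Ndufc, Ndufs, Ndufv, Uqcr, Atp5, Cox4, Cox5, Cox6, Cox7 or Cox8, together with Sdha, Sdhb, Sdhc, Sdhd and Cyc1, provided that they had 10 or more counts summed over the 6 libraries. The rule found 106 members among the 37315 genes listed, of which 26277 had a count in some library. Of these 106 genes, 13 are encoded by the mitochondrial genome and 93 by the nucleus. Of 107 symbols that matched, Cox8c, a testis-type subunit of complex IV, had a count of 0 in every library and was left out. Cox7b2 was the member nearest the minimum, with 29 counts in all, and mt-Nd4l followed with 64.

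Hippocampi of C57BL/6J mice aged 4 weeks were profiled by RNA-seq, in 3 pairs of libraries with 1 library per genotype. The first pair was Prrc2a f/f;Nestin-Cre against Prrc2a f/f, the second was Prrc2a f/f;Olig2-Cre against another Prrc2a f/f library, and the third was Fto Tg against wild type (WT). Both f/f controls carry the floxed alleles, Nestin-Cre recombines in neural progenitors and so in most neurons and glia that descend from them, and Olig2-Cre was inserted at the endogenous Olig2 gene, so those mice also lack 1 working Olig2 copy. The Fto transgene was introduced with a lentivirus and is driven by the ubiquitin C promoter rather than in a chosen cell type. Prrc2a encodes a reader of the RNA mark m6A and Fto an enzyme that removes it. It was not stated whether a library held 1 mouse or a pool, and no genotype had a second library, so a difference within a pair compares 2 libraries and carries no replicate check. In bulk tissue, fewer cells of a type and less RNA per cell cannot be told apart.

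The respiratory chain passes electrons from NADH (complex I) or succinate (complex II) through complex III to oxygen at complex IV, and complex V uses the resulting proton gradient to make ATP. Complex II is made from nuclear genes alone, whereas complexes I, III, IV and V combine subunits from both genomes. Mitochondrial genes are transcribed as long polycistronic RNAs that are cut into single messages, whereas each nuclear subunit has its own promoter and its protein is imported. Among the 13 mitochondrial members, 7 belong to complex I, 1 to complex III, 3 to complex IV and 2 to complex V. Among the 93 nuclear members, 36 belong to complex I, 4 to complex II, 9 to complex III, 19 to complex IV (with Ndufa4 and Ndufa4l2 counted there) and 17 to complex V, and 8 are Ndufaf genes, which encode assembly factors of complex I rather than subunits.

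The mitochondrial genes have sequence features that bear on how their reads could be counted, because only uniquely mapped reads were kept and reads that touched more than 1 gene were dropped. Every 101-base window of the longest annotated transcript of each member, the read length given by the labels, was looked up in all transcripts of other genes in GENCODE M21 (GRCm38). Of the 13 mitochondrial members, 5 had no window in another annotated gene and 6 had 50% or more of their windows in one. Those 6 were mt-Co2 with 99.5% of windows, mt-Atp6 with 99.5%, mt-Co3 with 99.9%, mt-Nd3 with 97.6%, mt-Nd4l with 98.5% and mt-Nd4 with 60.7%. The matches for these genes were unprocessed pseudogenes, nearly all in a mitochondrial insertion on chromosome 1 that runs in parallel with the mitochondrial map from the 3′ part of mt-Co1 to the 5′ part of mt-Nd4. Only annotated transcripts were searched, so a copied stretch outside them would be missed. In gene order mt-Atp8, with 0% of windows shared, lies between mt-Co2 and mt-Atp6, which both have copies in this insertion. In mt-Co1, 30.7% of all windows were shared, 26.2% in a 3′ run of 479 bases (chrM:6394-6872) and the rest in 2 shorter runs upstream of it. The study's methods give reads of 101 to 150 bases, and with 150-base windows, a length tried after the data were seen, the same 6 members had 50% or more of windows shared, from 59.2% to 99.8%. Of the 10 pseudogenes that shared a window, 7 lie on chromosome 1, and 6 of the 10 are not listed in the count tables. Among the 93 nuclear members, 64 had no window elsewhere and only Ndufaf2, whose longest transcript shares sequence with 29 other genes, had 50% or more. The sequences at the ends of the copied stretch in mt-Co1 (chrM:6319-6468, plus strand) and mt-Nd4 (chrM:10968-11117, plus strand) are shown because they mark where the long shared run begins and ends, with the bases that lie in a shared window in capitals:
mt-Co1: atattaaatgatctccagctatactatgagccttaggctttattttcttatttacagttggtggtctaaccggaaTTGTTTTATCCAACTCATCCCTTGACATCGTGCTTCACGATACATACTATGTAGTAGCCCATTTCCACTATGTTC
mt-Nd4: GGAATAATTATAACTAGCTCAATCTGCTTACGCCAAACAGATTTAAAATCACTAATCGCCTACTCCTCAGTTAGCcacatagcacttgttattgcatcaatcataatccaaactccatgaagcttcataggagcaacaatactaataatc

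Neighbouring mitochondrial genes also overlap. The last 43 bases of mt-Atp8 are the first 43 of mt-Atp6, and the last 7 bases of mt-Nd4l are the first 7 of mt-Nd4. The ends of mt-Nd5 and mt-Nd6, which lie on opposite strands, overlap by 14 bases, and since counting ignored strand, reads of mt-Nd6 and of RNA antisense to it cannot be told apart. The complete genes mt-Atp8 (chrM:7766-7969, plus strand, 204 bases) and mt-Nd4l (chrM:9877-10173, plus strand, 297 bases) are shown because they had the lowest counts of the mitochondrial members, with the bases shared with the next gene in capitals:
mt-Atp8: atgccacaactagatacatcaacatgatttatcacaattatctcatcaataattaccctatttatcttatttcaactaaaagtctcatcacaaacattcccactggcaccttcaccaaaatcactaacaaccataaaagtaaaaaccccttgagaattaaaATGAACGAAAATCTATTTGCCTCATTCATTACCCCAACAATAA
mt-Nd4l: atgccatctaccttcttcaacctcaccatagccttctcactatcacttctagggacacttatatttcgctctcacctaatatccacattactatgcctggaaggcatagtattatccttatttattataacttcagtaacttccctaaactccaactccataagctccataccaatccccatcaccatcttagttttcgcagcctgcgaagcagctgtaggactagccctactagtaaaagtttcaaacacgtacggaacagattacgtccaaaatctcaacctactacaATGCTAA

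Total counts ranged from 18616540 to 35482589 per library. Prrc2a itself was at 434 CPM (counts divided by the library total and put on a common scale) in f/f and 184 in Nestin-Cre, and at 389 in f/f and 346 in Olig2-Cre. The fall in Nestin-Cre is not corrected for the lower median of all genes in that pair, given below. Fto was at 158 CPM in WT and 354 in Fto Tg. The Nestin-Cre library stood apart from the other 5: the median log2 ratio over all 18170 genes tested in its pair was -0.72, whereas it was -0.00 for Olig2-Cre over its f/f control and -0.01 for Fto Tg over WT. Scaling by edgeR's trimmed mean (TMM) moved that median to -0.03, so changes in this pair are also given relative to all genes. Apart from mt-Tp, mitochondrial tRNA genes had 1 and 0 counts in f/f and Nestin-Cre of the first pair and 93 to 281 in the other 4 libraries. Whether the first experiment was processed like the others was not tested, and this touches every value that sets libraries of different experiments side by side (the 3 controls, the other f/f control and the spread among controls). Neuron and astrocyte markers were present in every library.

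Mitochondrially encoded members made up a much larger part of the Nestin-Cre library than of any other, while nuclear members made up a smaller part. Their share of all counts was 6.54% in f/f and 24.9% in Nestin-Cre, 7.29% in f/f and 7.25% in Olig2-Cre, and 7.63% in WT and 7.13% in Fto Tg. The share of the 93 nuclear members was 1.19% in f/f and 0.393% in Nestin-Cre, 0.988% in f/f and 1.19% in Olig2-Cre, and 1.01% in WT and 1.25% in Fto Tg. Both shares of the Nestin-Cre library lay outside the range of the other 5, and the Wilson 95% intervals, which cover counting error only, were at most 0.0144 percentage points to either side. The ratio of mitochondrial to nuclear member counts was 63.4 in Nestin-Cre and 5.50 to 7.57 in the other libraries. Mitochondrial rRNA, 1.22% to 1.48% of counts, was 1.24% in Nestin-Cre, within the range of the other libraries.

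Within each pair, genes with 10 or more counts were compared by the read test of the study (the MARS method of DEGseq), which asks whether a log2 ratio exceeds what random sampling of reads gives. A gene was called at a false discovery rate under 0.001 and a fold of at least 1.2. Of all genes tested, 11.5% were called higher and 53.4% lower in Nestin-Cre, 4.95% and 6.91% in Olig2-Cre, and 6.97% and 8.51% in Fto Tg. A call says only that these 2 libraries differ beyond sampling of reads.

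**Figure D1:**
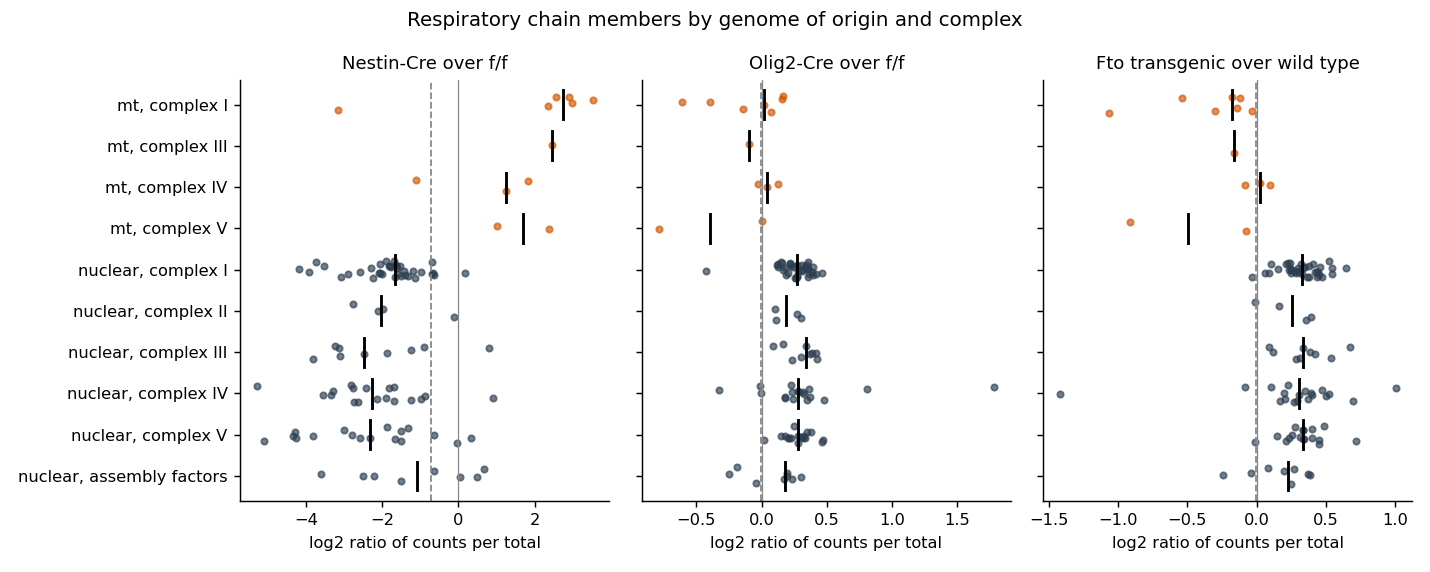
Log2 ratio of counts per library total (x axis) for each member tested, by genome of origin and complex (y axis), in the 3 pairs, with the Ndufaf genes as assembly factors; each point is a gene, black bars are medians and the dashed line is the median of all genes tested. Orange mitochondrial members lay at a median of 2.35 and dark nuclear members at -1.87 in the Nestin-Cre pair, while nuclear members lay at 0.27 and 0.32 in the other 2 pairs; the x axes differ between panels.

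In the Nestin-Cre pair the genome of origin separated most members. Of 12 mitochondrial members tested, 10 were called higher and 2 lower, with a median log2 ratio of 2.35. Of 92 nuclear members tested, 4 were called higher and 83 lower, with a median of -1.87, which is -1.16 relative to all genes. The difference between both medians was 4.23 on the log2 scale, a value that no scaling by a library factor can change. With TMM scaling, all genes were split into 5185 higher and 5465 lower instead of 2097 and 9699, and the members into 19 higher and 76 lower instead of 14 and 85. After adjusting each ratio for the GC content and transcript length of the gene, 22 members (21.2%) were called higher and 64 (61.5%) lower, against 29.2% and 25.9% of all genes.

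The mitochondrial messages of complex I showed the widest differences. mt-Nd2, a membrane-arm subunit, was at 3122 CPM in f/f and 35818 in Nestin-Cre, at 3317 and 3363 in the Olig2-Cre pair, and at 3560 and 3145 in the Fto pair (log2 ratio 3.52 in the first pair). mt-Nd6, the only member on the minus strand, was at 1196 and 9362, at 1071 and 1123, and at 1186 and 1091 CPM (2.97). mt-Nd5 was at 3709 and 27808, at 3575 and 2719, and at 3801 and 2612 CPM (2.91). All 3 were called higher in the Nestin-Cre pair, where the altered library lay far above the 5 others. mt-Nd1 (2.55) and mt-Nd4 (2.34) were called higher as well. mt-Nd3, also a membrane-arm subunit, went the other way, at 3034 CPM in f/f and 337 in Nestin-Cre, at 1679 and 1875, and at 2442 and 2389 (-3.17). mt-Nd4l had between 1 and 23 counts per library and was too low to be tested in the first pair.

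Of the other complexes, mt-Cytb, the cytochrome b of complex III, was at 6802 CPM in f/f and 37062 in Nestin-Cre against 6606 to 7386 in the remaining libraries (2.45). In complex IV, the catalytic subunit mt-Co1 was at 12804 and 45492 CPM (1.83) and mt-Co2, which accepts electrons from cytochrome c, at 7122 and 16819 (1.24). Both were called higher, and Nestin-Cre was above all 5 other libraries. mt-Co3 was at 11008 and 5067 CPM (-1.12), below the 10897 to 12553 CPM of the remaining libraries, and was called lower (with TMM scaling its ratio was -0.43). In complex V, mt-Atp6, part of the proton channel, was at 5326 and 10751 CPM (1.01) and mt-Atp8 at 48.8 and 252 (2.37).

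The composition of the mitochondrial messages, which does not depend on scaling, differed in the Nestin-Cre library. mt-Nd2 took 14.4% of the counts of the 13 members there and 4.66% ± 0.112 (SD, n = 3) in the control libraries. mt-Nd5 took 11.1% against 5.18% ± 0.423. mt-Co3 took 2.03% against 15.7% ± 0.984, and mt-Nd3 took 0.135% against 3.38% ± 1.18. mt-Co1, with 18.2% against 21.6% ± 2.03, lay within 2 control SDs. Mitochondrial rRNA genes were split in the same pair: mt-Rnr1 was called higher (0.61) and mt-Rnr2 lower (-0.95).

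The members with the lowest ratios were those with the largest share of windows found in other annotated genes. The 5 tested members with 50% or more of their windows in another gene had log2 ratios of -3.17 to 2.34 (median 1.01), and the 7 with less had ratios of 1.83 to 3.52 (median 2.55). The 4 lowest, mt-Nd3, mt-Co3, mt-Atp6 and mt-Co2, were the 4 tested members with over 97% of windows shared, which was noticed after the values were seen. One of the 7 with less, mt-Atp8 (2.37), lies between mt-Co2 and mt-Atp6. A copy of it outside annotated genes would not have been seen. The same groups had medians of 0.02 and -0.03 for Olig2-Cre, and of -0.05 and -0.16 for Fto Tg. Gm10222, the copy of mt-Nd4l on chromosome 1 (chr1:24612407-24612700, minus strand), was at 2.17 to 15.0 CPM in the 6 libraries. Levels of members with shared windows varied widely: mt-Co3 (99.9% shared) was at 5067 to 12553 CPM, whereas mt-Nd4l (98.5%) had 1 to 23 counts. How many reads were lost, and the part of the shared sequence in these ratios, was not tested.

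**Figure D2:**
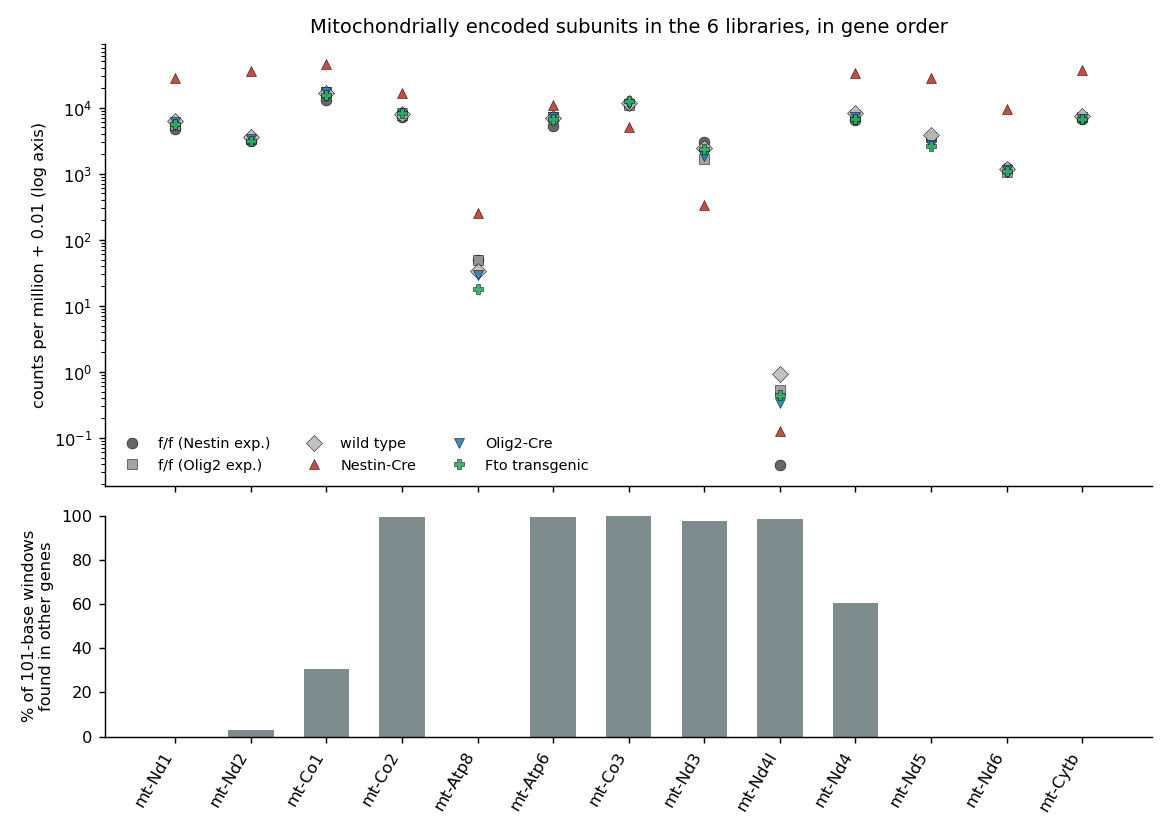
CPM plus 0.01 on a log axis (top) for the 13 mitochondrial members in gene order in each of the 6 libraries (1 point per library), and the percentage of 101-base windows found in other genes (bottom). The Nestin-Cre triangles lie above the other libraries except at mt-Co3 and mt-Nd3, where they lie below, and at mt-Nd4l; 4 of the tall bars mark mt-Co2, mt-Atp6, mt-Co3 and mt-Nd3.

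Nuclear members were lower in the Nestin-Cre library in all 5 complexes. In complex I, 35 of 36 members were called lower (median -1.67, or -0.96 relative to all genes). In complex II it was 3 of 4 (-2.04), in complex III 8 of 9 (-2.47), in complex IV 17 of 18 tested (-2.28) and in complex V 15 of 17 (-2.33). The assembly factors were less uniform, with 5 of 8 called lower, 2 higher and a median of -1.08. The median of each complex was negative under every scaling and after the GC and length adjustment, where it ran from -1.05 in complex III to -0.40 in complex I. Nestin-Cre lay below the lowest of the 3 control libraries for 85 of 93 nuclear members and above the highest for 6, whereas over all genes 66.9% lay below and 17.7% above. Among the 13 mitochondrial members, 10 lay above and 2 below.

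In complex I, Ndufv1, which carries the NADH site, was at 135 CPM in f/f and 33.6 in Nestin-Cre, at 112 and 139 in the Olig2-Cre pair, and at 110 and 141 in the Fto pair. Ndufa9 was at 111 and 35.9, at 83.0 and 100, and at 96.0 and 113 CPM, and Ndufab1, the mitochondrial acyl carrier protein, was at 91.2 and 28.7, at 91.9 and 111, and at 87.5 and 101. Nestin-Cre was the lowest of the 6 libraries for all 3 genes. Ndufs1, the largest subunit of the matrix arm, was at 102 CPM in f/f and 62.7 in Nestin-Cre (-0.70, called lower), close to the median of all genes, and its ratio was 0.02 with DESeq2 size factors. The lowest complex I ratios were those of the accessory subunits Ndufb11, at 86.6 and 4.80 CPM (-4.17), Ndufa2, at 74.0 and 4.86 (-3.92), and Ndufb6, at 30.1 and 2.24 (-3.74), all called lower. Ndufb4 was at 53.1 and 60.2 CPM (0.18) and was the only nuclear complex I member not called, although it was called higher with TMM (0.87), DESeq2 size factors (0.90), the total outside the mitochondrial genome (0.50) and the GC and length adjustment (1.61).

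Complex II was divided. Sdha, the flavoprotein that oxidizes succinate, was at 336 CPM in f/f and 307 in Nestin-Cre, at 329 and 353 in the Olig2-Cre pair, and at 359 and 356 in the Fto pair. With scaling by library totals it was called in no pair, but in the Nestin-Cre pair its ratio of -0.13 became 0.56 with TMM, 0.54 after the GC and length adjustment and 0.59 by the size factors of DESeq2, each called higher. Its partner Sdhb, the iron-sulfur subunit, was at 94.8 and 24.3, at 100 and 121, and at 102 and 134 CPM. The membrane anchors followed Sdhb: Sdhc was at 89.5 and 20.7 CPM in the first pair (-2.11) and Sdhd at 65.9 and 9.72 (-2.76). Sdhb, Sdhc and Sdhd were called lower in Nestin-Cre, with log2 ratios of -1.97, -2.11 and -2.76 against -0.13 for Sdha.

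In complex III the core protein Uqcrc1 was at 193 CPM in f/f and 52.5 in Nestin-Cre (-1.88) and Uqcrc2 at 155 and 65.4 (-1.24). The Rieske iron-sulfur protein Uqcrfs1 was at 109 and 19.6 (-2.47) and cytochrome c1 (Cyc1) at 121 and 13.9 (-3.11). These 4 genes were called lower. Uqcrb, a small subunit of the same complex, was at 49.7 CPM in f/f and 86.7 in Nestin-Cre, at 41.4 and 46.5, and at 37.5 and 40.8 in the other pairs, and was the only complex III member called higher (0.80).

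In complex IV, Cox5a was at 132 CPM in f/f and 11.2 in Nestin-Cre (-3.56) and Cox5b at 215 and 67.0 (-1.68), both called lower. Cox4i1 was at 474 and 127 CPM, at 344 and 403, and at 349 and 451. It was called lower in the first pair (-1.90), but its ratio was 0.19 once GC content and length were adjusted for. Tissue isoforms of complex IV were scarce in the hippocampus: per length, as CPM per 1000 bases of exon (RPKM), Cox4i1 averaged 251 ± 47.7 (SD, n = 3 controls) and Cox4i2, an oxygen-responsive form known from lung, 1.12 ± 0.197. Cox6a1 averaged 335 ± 50 RPKM and its muscle form Cox6a2 5.72 ± 1.53, Cox8a 621 ± 126 and the muscle form Cox8b 2.56 ± 1.78, and Cox7a2 109 ± 19.4 and the muscle form Cox7a1 4.21 ± 0.689. The testis form Cox6b2 averaged 2.31 ± 1.09 RPKM beside 263 ± 36.9 for Cox6b1, and Ndufa4l2 1.54 ± 0.299 beside 141 ± 16.9 for Ndufa4. In all 6 of these isoform pairs the common form lay above the other in every library. Cox8b had 59, 1, 16, 36, 14 and 7 counts in f/f, Nestin-Cre, f/f, Olig2-Cre, WT and Fto Tg. Cox4i2 was at 1.01 CPM in f/f and 1.93 in Nestin-Cre (0.92) and was not called, though it was called higher with DESeq2 size factors (1.63). Cox6a1 (-2.42), Cox6b1 (-1.70), Cox7a2 (-2.63), Cox8a (-3.30) and Ndufa4 (-2.78) were called lower in Nestin-Cre. Cox7a2l, a factor of supercomplexes, was at 115 and 58.2 CPM (-0.98, called lower), and its ratio was 0.05 after the GC and length adjustment.

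Complex V held the largest falls among members with at least 100 counts in the pair. Atp5e, the epsilon subunit in the central stalk, was at 140 CPM in f/f and 4.09 in Nestin-Cre (Wilson 95% interval 3.47 to 4.81), at 80.0 and 111 in the Olig2-Cre pair, and at 83.8 and 138 in the Fto pair. Atp5l, a membrane subunit, was at 122 and 6.01, at 113 and 147, and at 122 and 167 CPM. Atp5k, another membrane subunit, was at 176 and 8.98, at 88.8 and 103, and at 75.6 and 99.7 CPM. Their log2 ratios in the first pair were -5.10, -4.34 and -4.29, and Nestin-Cre was far below each of the other libraries. Some larger subunits fell less. In the catalytic head, Atp5b was at 933 and 373 CPM (-1.32) and Atp5a1 at 713 and 250 (-1.51). Atp5c1, the gamma subunit in the central stalk, was at 227 and 79.9 (-1.51). Atp5f1 was at 212 and 206 CPM (-0.04) and not called, though with TMM (0.64) it was called higher, and Atp5h at 204 and 257 and called higher (0.33). Among the assembly factors, Ndufaf4 was at 33.3 and 52.8 CPM (0.67) and Ndufaf6 at 6.12 and 8.54 (0.48), both called higher, and Ndufaf8 was at 17.2 and 1.41 (-3.60), called lower.

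**Figure D3:**
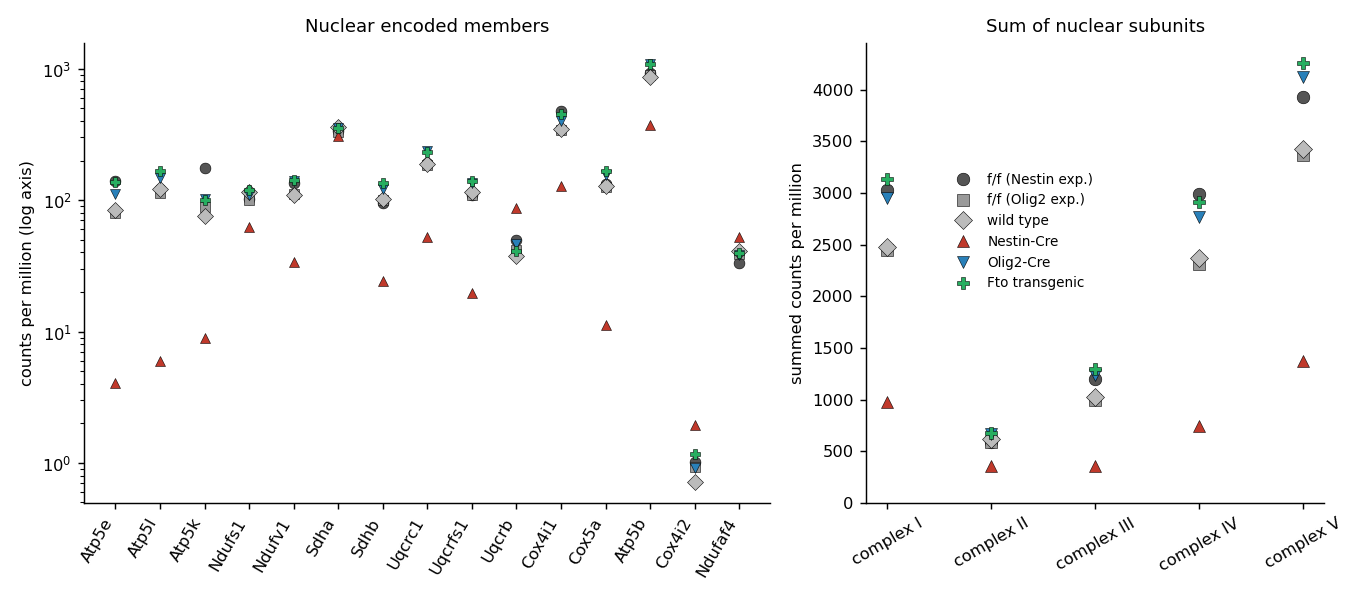
Left, CPM on a log axis for 15 nuclear members in the 6 libraries (1 point per library). Right, summed CPM of the nuclear subunits of each complex, from 0. The Nestin-Cre triangle is lowest for every complex sum, and at Sdha it lies next to the other libraries while at Uqcrb, Cox4i2 and Ndufaf4 it lies above them.

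The fall was deepest for short messages. Grouped by longest transcript, the 9 nuclear members under 600 bases had a median log2 ratio of -3.30, the 33 of 600 to 1000 bases -1.90 and the 50 of at least 1000 bases -1.65. Over all genes the corresponding medians were -0.74, -1.21 and -0.70. Across the 89 nuclear members with at least 100 counts in the pair, Spearman's rho of the ratio was 0.31 with length and -0.26 with GC content. Across all genes under the same minimum it was 0.28 and -0.43. These are descriptions across genes of the same 2 libraries. Mitochondrial members had a median GC content of 36.5% and nuclear members lay higher, between 37.0% and 63.3%, and adjusting for GC content and length left the mitochondrial median at 2.84 and the nuclear median at -0.70, a difference of 3.54. The part of GC content and length in the result was not tested beyond this adjustment.

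**Figure D4:**
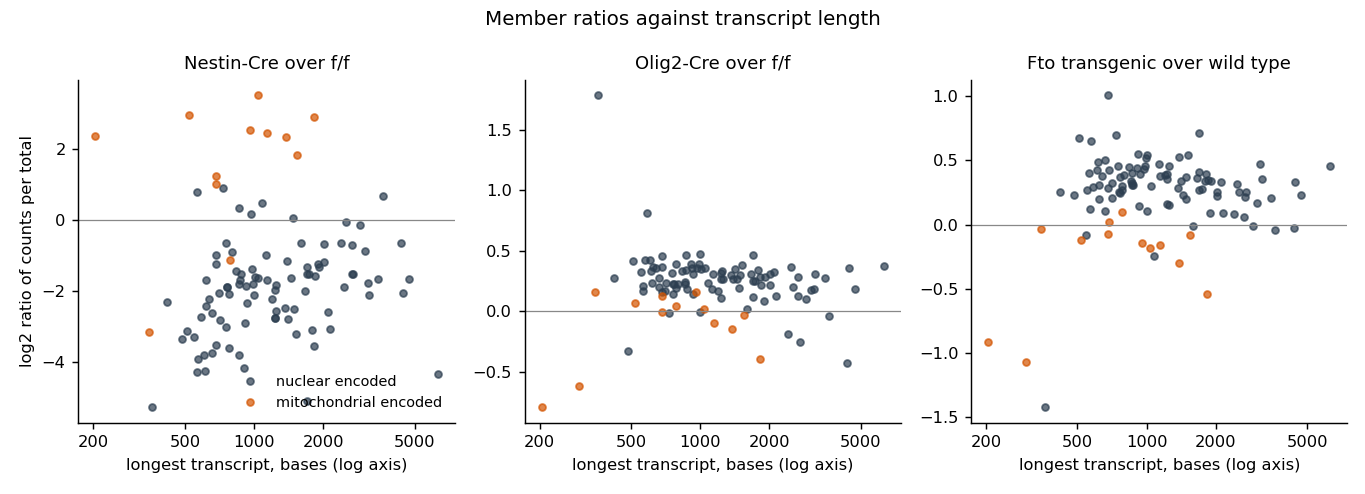
Log2 ratio of each member (y axis) against the length of its longest transcript in bases (x axis, log scale) in the 3 pairs; each point is a gene, orange for mitochondrial and dark for nuclear encoded. In the Nestin-Cre pair nuclear members under 600 bases had a median of -3.30 and those of at least 1000 bases -1.65; the y axes differ between panels.

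In the Olig2-Cre pair nuclear members were called higher in small steps while mitochondrial members stayed close to the control. Of 92 nuclear members tested, 45 were called higher and 1 lower, with a median log2 ratio of 0.27. Of 13 mitochondrial members, 0 were called higher and 2 lower, with a median of -0.00. The counts called higher were 21 of 36 in complex I, 2 of 4 in complex II, 6 of 9 in complex III, 7 of 18 in complex IV, 9 of 17 in complex V and 0 of 8 assembly factors. The 2 mitochondrial members called lower were mt-Nd5 (-0.39) and mt-Atp8, at 1452 counts in f/f and 538 in Olig2-Cre (-0.79).

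Among nuclear members with at least 100 counts in the pair, the highest ratios were those of Cox6b2 (2.17 and 3.81 CPM, 0.81, not called), Atp5e (0.47) and Atp5g3, a c-ring subunit, at 202 and 279 CPM (0.47). The lowest were Ndufb2 at 469 and 224 counts (-0.42, called lower), Cox7a1 at 2.45 and 1.93 (-0.33) and Ndufaf7 (-0.25). Most core subunits were a little higher, for example Uqcrc1 at 184 and 238 CPM (0.37), Cyc1 at 109 and 138 (0.34) and Ndufv1 (0.31), all called.

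This rise rested on which f/f library served as control. The f/f library of the first experiment was the highest of the 3 controls for 72 of 93 nuclear members and stood at a median log2 ratio of 0.27 over the f/f library of the second. WT and the second f/f library differed by a median of 0.01. Against the first f/f library, 13 members were called higher and 20 lower in Olig2-Cre, with a nuclear median of 0.00, and Atp5e, for example, had a ratio of -0.34 instead of 0.47. Set against all 3 controls, Olig2-Cre was above the highest for 41 of 93 nuclear members and below the lowest for 4, whereas over all genes 28.3% lay above and 30.2% below. An exact test that used the spread among the 3 controls (biological coefficient of variation 0.133) called 0 members in either direction. Shares of all genes called by this test, or against the first f/f library, were not set beside these counts, which describe the members alone.

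In the Fto pair the pattern was similar in size. Of 93 nuclear members tested, 56 were called higher and 0 lower, with a median log2 ratio of 0.32. Against the mean of the 3 controls the nuclear median was 0.22. The f/f library of the first experiment itself stood at a nuclear median of 0.29 over WT. Of 13 mitochondrial members, 0 were called higher and 3 lower, with a median of -0.15. Called higher were 24 of 36 in complex I, 2 of 4 in complex II, 7 of 9 in complex III, 9 of 19 in complex IV, 12 of 17 in complex V and 2 of 8 assembly factors. The mitochondrial members called lower were mt-Nd5 (-0.54), mt-Nd4 (-0.30) and mt-Atp8, at 33.5 CPM in WT and 17.8 in Fto Tg (-0.91).

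The highest ratios with at least 100 counts in the pair were those of Cox6a2 at 3.02 CPM in WT and 6.08 in Fto Tg (a log2 ratio of 1.0), Atp5e at 83.8 and 138 (0.72) and Uqcr10, a small complex III subunit, at 76.5 and 122 (0.67), all called higher. The lowest were Ndufaf6 (-0.25), Ndufaf4 (-0.04) and Ndufb2 (-0.03), none of them called. In complex II, Sdhb was at 102 and 134 CPM (0.39) and Sdhc at 86.5 and 110 (0.35), both called higher, while Sdha and Sdhd (0.16) were not called. Fto Tg lay above the highest of the 3 controls for 51 of 93 nuclear members and below the lowest for 2, whereas over all genes 27.7% lay above and 29.4% below. The exact test with the spread among controls called 0 members here as well, a count given without the share of all genes. Ratios near the nuclear median were again too small for it to call. In the Nestin-Cre pair it called 10 higher and 75 lower (9.62% and 72.1% of members, against 3.85% and 30.4% of all genes).

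The small rises in these pairs moved with GC content and length. Across nuclear members with at least 100 counts in the pair, Spearman's rho of the ratio with GC content was 0.47 (n = 89) for Olig2-Cre and 0.45 (n = 90) for Fto Tg. With length it was -0.25 and -0.26. Over all genes under the same minimum, rho with length was -0.48 and -0.52. After adjustment for both, the nuclear medians were 0.10 and 0.11, and 11 and 18 members were called higher, counts given without the share of all genes. Their part beyond this adjustment was not tested.

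When both Cre libraries were set against both f/f libraries (2 against 2) with edgeR's quasi-likelihood test, 0% of 16921 genes and 0 of 105 members passed a false discovery rate of 0.05. At an unadjusted p under 0.05 this test gave 143 genes and 0 members. With the experiment as a block, which keeps each Cre library with its own f/f library, it gave 498 genes and 10 members. The Wald test of DESeq2, without the block, gave 546 of 25251 genes and 9 of 106 members at an unadjusted p under 0.05. At the false discovery rate of 0.05, DESeq2 called 3 genes and 0 members. The lowest adjusted p of a member by edgeR's quasi-likelihood test was 0.955. Median log2 fold changes were 2.07 for mitochondrial and -0.33 for nuclear members, and the Cre libraries did not move alike, with a coefficient of variation of 0.399 in this fit. Without the Olig2-Cre library, leaving 1 Cre library that is assumed to vary like the controls, 91 of 105 members and 8480 genes passed.

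Levels in the 3 controls differed by genome and complex. The median RPKM was 5694 ± 741 (SD, n = 3) for mitochondrial and 49.1 ± 3.83 for nuclear members. Among nuclear members it was 85.3 ± 11.2 in complex IV, 68.6 ± 3.25 in complex III, 64.7 ± 13.2 in complex V, 50.1 ± 1.92 in complex II, 41.2 ± 5.63 in complex I and 10.4 ± 0.468 for the assembly factors. Complexes IV and V, III and V, and V and II did not differ beyond their SDs, whereas the assembly factors lay below every complex.

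Promoters of the nuclear members were searched because 83 of 92 tested were called lower in the Nestin-Cre pair. RefSeq promoter windows (GRCm38.p6, 250 bases before to 50 after the start) were found for 74 of the 93 genes, with 79 windows. The letters GCGCATGCG, bound by NRF1, a regulator of respiratory genes, occurred on either strand in 10 of the 79 windows (12.7%) and in 1.75% of all 32851 windows. CCGGAAG, the ETS-family motif that GABPA binds, occurred in 22.8% of member windows and 8.86% of all, and AAGATGGCG, a YY1 motif, in 10.1% and 1.40%. A match describes the letters in a window and is not a bound site. The 150 bases before the start are shown for 3 genes that went in opposite directions in the Nestin-Cre pair, Atp5e (chr2:174464102-174464251, minus strand) and Atp5k (chr5:108434400-108434549, minus strand), which were lower, and Ndufaf4 (chr4:24897933-24898082, plus strand), which was higher, with matches in capitals:
Atp5e: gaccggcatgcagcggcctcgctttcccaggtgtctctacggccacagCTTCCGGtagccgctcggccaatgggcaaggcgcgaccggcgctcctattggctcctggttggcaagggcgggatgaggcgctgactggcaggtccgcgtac
Atp5k: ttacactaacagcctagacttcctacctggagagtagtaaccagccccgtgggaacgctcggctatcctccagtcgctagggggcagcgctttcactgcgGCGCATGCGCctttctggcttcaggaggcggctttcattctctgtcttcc
Ndufaf4: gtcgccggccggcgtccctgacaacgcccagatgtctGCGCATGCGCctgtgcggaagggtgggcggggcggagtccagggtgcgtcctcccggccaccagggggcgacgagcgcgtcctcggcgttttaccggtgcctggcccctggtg

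Atp5k and Ndufaf4 both carry the NRF1 letters and had log2 ratios of -4.29 and 0.67. The window of Atp5k also holds the ETS letters, not wholly within the 150 bases shown, and that of Ndufaf4 does not. The part of the motifs in the ratios was not tested. Of 10 regulators of mitochondrial biogenesis, 3 were called higher and 6 lower in the Nestin-Cre pair, where 11.5% and 53.4% of all genes were called. Their median was -0.43 against -0.72 over all genes, and 0.46 after the GC and length adjustment. Ppargc1a, a coactivator of respiratory genes, was at 58.3 CPM in f/f and 94.9 in Nestin-Cre (0.70), Gabpa at 31.8 and 45.6 (0.52), Nrf1 at 18.3 and 12.6 (-0.54) and Esrra, a nuclear receptor that works with Ppargc1a, at 54.8 and 2.68 (-4.35). Tfam, which packages mitochondrial DNA and starts its transcription, was at 29.0 and 17.9 CPM (-0.70). Nrf1 and Tfam were called lower but lay at or slightly above the median of all genes. In the Olig2-Cre pair none of the 10 was called, and in the Fto pair Ppargc1a (-0.33) and Esrrg (-0.33) were called lower.

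Other mitochondrial gene lists are read against the shares of all genes called, 11.5% higher and 53.4% lower for Nestin-Cre, 4.95% and 6.91% for Olig2-Cre, 6.97% and 8.51% for Fto Tg. Of 77 mitochondrial ribosomal proteins, 65 were called lower and 2 higher in the Nestin-Cre pair (median -1.34), 11 higher and 0 lower in the Olig2-Cre pair (0.18), and 29 higher and 0 lower in the Fto pair (0.24). Of 21 genes that make or handle mitochondrial RNA, 15 were called lower and 3 higher in the Nestin-Cre pair, with a median of -0.75 close to that of all genes. In each of the other pairs 1 was called higher and 0 lower, with medians of -0.06 and 0.04, near those of all genes. Of 35 other assembly factors the counts were 30 lower and 3 higher in the first pair, 2 and 2 in the second, and 0 and 6 in the third. Of 17 genes of the tricarboxylic acid cycle, 12 were lower and 1 higher in the first pair (median -0.93, and -0.01 after the GC and length adjustment), and 2 were higher and 0 lower in each of the others. Of 8 carriers, including cytochrome c, 7 were lower in the first pair, 1 was higher in the second and 0 were called in the third.

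Cell-type markers moved in the same pairs. The summed level of 6 choroid plexus markers, an epithelium rich in mitochondria, was 2875 CPM in f/f and 267 in Nestin-Cre (6 of 6 called lower), 2181 and 3415 in the Olig2-Cre pair (3 higher), and 1646 and 693 in the Fto pair (6 lower), with no marker at 0. That of 8 oligodendrocyte markers was 10151 and 6965 CPM (6 lower), 8911 and 7076 (5 lower), and 10342 and 11901 (3 higher), with none at 0. In the first pair the choroid plexus sum and the nuclear member median were both lower. In the second pair both were higher, and in the third the sum was lower and the median higher. The part of these cells in the members' ratios was not tested.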

How the data were processed

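Per the labels and the study's methods, the authors prepared hippocampal mRNA with a TruSeq kit, sequenced reads of 101 bases (labels) or 101 to 150 bases (methods) on an Illumina instrument, trimmed and filtered them, aligned them to mm10 with TopHat (TopHat2 2.0.9 per the labels), kept uniquely mapped reads and deposited whole-number counts per Ensembl gene from HTSeq 0.6 in union mode without strand. Sources differed on single or paired reads. Reads shared with a copy elsewhere or with a second gene may therefore not all have been counted, which can affect the mitochondrial genes by an amount not tested.

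From these counts, groups were taken from genotype labels, and CPM were computed from library totals and RPKM from the union of exons. Genes with 10 or more counts in a pair were tested with a pseudocount of 0.5 by the MARS read test (false discovery rate 0.001, fold 1.2), written for this work and tested on simulated data. The contrast of 2 against 2 libraries used edgeR 4.0.16 (R 4.3.3) with TMM and a false discovery rate of 0.05. Symbols were found for 95.2% of genes in GENCODE M21. Total counts of 18616540 to 35482589 put 3 counts, the smallest amount taken as detectable, at 0.0845 to 0.161 CPM. Wilson 95% intervals cover counting error only, as reads are not independent molecules. Alternatives were other scalings (TMM, DESeq2 1.42.0 size factors, the total outside the mitochondrial genome), adjustment for GC content and length, another control, no count minimum, a fold of 1.5, an exact test using the spread among control libraries, and leaving out each library of the 2 against 2 contrast. Members, classes and gene lists were chosen with earlier results of these data known. The genes named were all mitochondrial members, a set of core subunits and isoform pairs, and the 3 highest and 3 lowest nuclear members of each pair with at least 100 counts; other names were chosen after their values were seen.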

Additional observations from a re-analysis of the deposited data

Results flagged for a closer look

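Nuclear encoded members went in opposite directions in different pairs. Their median log2 ratio was -1.87 in the Nestin-Cre pair and 0.27 in the Olig2-Cre pair and 0.32 in the Fto pair. The 0.27 became 0.00414 with the other f/f control and 0.10 after the GC and length adjustment. The 0.32 became 0.22 against the mean of the 3 controls and 0.11 after the same adjustment. Prrc2a was at 184 CPM in Nestin-Cre against 434 in its control, and at 346 against 389 in the Olig2-Cre pair, where Cre acts in the Olig2 lineage only. The values of the Nestin-Cre pair are not corrected for the median log2 ratio of all its genes, -0.72. With 1 library per genotype, the difference between pairs was not tested. Nestin-Cre was below all 3 controls for 85 of 93 nuclear members, whereas Olig2-Cre was below all 3 for 4 and Fto Tg for 2, and over all genes these shares were 66.9%, 30.2% and 29.4%.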

How the results depend on the processing

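In the Nestin-Cre pair the nuclear median stayed negative and the mitochondrial median positive under every alternative run, with sizes that depended on the setting. With TMM, DESeq2 size factors, the total outside the mitochondrial genome, the GC and length adjustment and the other f/f control, the mitochondrial median was 3.04, 3.07, 2.67, 2.84 and 2.06 and the nuclear median -1.19, -1.16, -1.55, -0.70 and -1.53. The difference between both was 3.54 after the adjustment and 3.60 with the other control, and 22 members were called higher after the adjustment. In the Olig2-Cre pair 11 members were called higher after the adjustment, 13 with the other control, 1 at a fold of 1.5 and 0 by the exact test, and called lower were 20, 1 and 0 in the last 3. The nuclear median was 0.10 after the adjustment and 0.00414 with the other control, where the mitochondrial minus nuclear difference was 0.0631. In the Fto pair the nuclear median was 0.22 against the mean of the 3 controls. After the adjustment 18 members were called higher (nuclear median 0.11), 4 at a fold of 1.5 and 0 by the exact test, and 1 and 0 lower by the latter 2. Shares of all genes called were not set beside these counts in the Olig2-Cre and Fto pairs, so they describe the members alone. The exact test could hardly call ratios as small as the nuclear medians of these 2 pairs. The cause of these shifts between settings was not tested.

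Named members that had been called turned direction as follows. In the Nestin-Cre pair Ndufs1 was at 0.0188 with DESeq2 size factors, Ndufb2 at 0.0477 with TMM and 0.0787 with DESeq2 size factors, and Cox4i1, Cox6a2, Cox7a2l and Ndufa4l2 at 0.19, 0.28, 0.0467 and 0.58 after the adjustment. Sdha and Atp5f1, not called as reported (-0.13 and -0.04), were at 0.56 and 0.64 with TMM, 0.59 and 0.67 with DESeq2 size factors, 0.19 and 0.28 with the total outside the mitochondrial genome, and 0.54 and 0.23 after the adjustment. In the Olig2-Cre pair, with the other control, Ndufa9, Cox5b, Cox7a2, Cox8a, Ndufa4, Atp5e and Uqcr10 were at -0.15, -0.0433, -0.16, -0.15, -0.0107, -0.34 and -0.22. In the Fto pair Cox6a1 and Cox8a were at -0.0707 and -0.0721 after the adjustment, and Atp5k at -0.19 against the mean of 3 controls.

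In the contrast of 2 against 2 libraries, leaving out 1 library gave 0 to 91 members called, and the 91 came without the Olig2-Cre library. With the experiment as a block 2 genes and 0 members passed. The labels number no replicates across genotypes.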
